A study of Rana omeimontis with 12 samples.

Results

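Chromatin-modifying enzymes were examined in tadpoles of Rana omeimontis, a ranid frog of western China, in liver and tail after treatment with 3,5,3'-triiodothyronine (T3), the active thyroid hormone that drives amphibian metamorphosis. The enzymes were taken from the description of each unigene (an assembled transcript group standing for a gene or a piece of one). Members were unigenes described as a histone or arginine methyltransferase, histone acetyltransferase, deacetylase or demethylase, DNA cytosine methyltransferase or methylcytosine dioxygenase, SMARC protein or chromodomain helicase. Among 56172 unigenes the wording matched 170, and 110 of these, of 24085 unigenes in all, had at least 1 FPKM (fragments per kilobase of transcript, scaled to library size, so a level corrected for length) in at least 3 of the 12 libraries. The values of the rule were the levels alone, not the response to T3. At the edge, the third highest value was 1 FPKM for the SETD1A unigene just inside and 0.99 FPKM for the SETMAR-like unigene just outside. The other 60 unigenes stayed below the minimum, 24 of them described as CHD4-like, and are not described further.

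The 4 groups of 3 libraries were liver of tadpoles kept in 10 nM T3, liver of tadpoles kept with the solvent dimethylsulfoxide (control liver), tail of tadpoles kept in 10 nM T3, and tail of tadpoles kept with the solvent (control tail). All tadpoles were raised from wild-collected clutches, entered treatment at Gosner stages 30 to 31, before the forelimbs emerge, and were treated for 3 days with food. The study reports lower food intake and body weight in T3-treated tadpoles, so reduced feeding cannot be told apart from T3 here. The sources used here do not say how many tadpoles went into a library or whether a liver and a tail came from 1 animal, so p-values measure the spread between these libraries. The dose was given until outward signs of climax appeared, so the T3 groups are induced and not natural metamorphosis.

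DNA in the nucleus is wound on histones, and enzymes that add or remove methyl and acetyl groups on the histones, or methyl groups on cytosine, set how accessible a gene is. The thyroid hormone receptor works through such enzymes in frogs: without hormone it is bound by corepressor complexes that hold the deacetylase HDAC3, and with hormone it recruits coactivators such as p300, PRMT1 and CARM1. In Xenopus, DOT1L, the methyltransferase of lysine 79 on histone H3, is itself a known target gene of the hormone in the tadpole tail and intestine.

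The members carried 82 gene names in 19 classes, and 16 names were held by more than 1 unigene, 44 unigenes in all. Unigenes of 1 name can be pieces of 1 transcript, copies or related genes, so they are given with their identifiers. The best protein match was in a frog or toad for 86 members and in another vertebrate for 24. Mean levels over the 12 libraries were low, with a median of 3.53 FPKM. There were 19 members at 10 FPKM or more and 34 under 2 FPKM. The highest were PRMT1, the main asymmetric arginine methyltransferase, at 50.7 FPKM and a CHD4-like unigene (DN117477_c1_g1) at 49.1 FPKM.

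The libraries differed in ways that bear on every comparison. Depth, read from the steps between low values, lay within 1.37-fold. The median of all tested unigenes shifted by -0.26 on the log2(FPKM + 1) scale in liver and by 0.31 in tail, and median-ratio scaling brought these to -0.03 and 0.03. Calls are therefore given on the deposited scale and again after that scaling. Hepatocyte transcripts made up 7.74 to 11.1% of summed FPKM in T3 livers and 3.90 to 5.69% in control livers, and at most 0.00703% in any tail. Skeletal muscle transcripts made up 3.10 to 4.87% in T3 tails and 5.21 to 9.85% in control tails, so both tissues carried the transcripts of their label. Epidermal transcripts also separated the tails, at 0.547 to 0.869% in T3 tails and 0.901 to 1.83% in control tails, as did leukocyte transcripts, at 0.0189 to 0.0326% in T3 tails and 0.0566 to 0.105% in control tails. Single unigenes of these lists went both ways. In liver 4 of 25 tested hepatocyte unigenes rose and 4 fell. In tail 11 of 33 epidermal unigenes rose and 17 fell, and 2 of 23 muscle unigenes rose and 10 fell. Of 7 leukocyte unigenes in tail 0 rose and 2 fell. The part of the shifts in these sums in the tail changes below was not tested. Exocrine pancreas transcripts, 46 unigenes, reached 8.08 and 9.98% in control livers 1 and 2 against 0.0399% in control liver 3 and 0.0234 to 0.632% in T3 livers. Of 6 T3 response unigenes (thyroid hormone receptor beta, KLF9, TH/bZIP and deiodinase 3), 6 rose in tail, and in liver 4 of 5 tested rose and 1 fell.

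As a share of summed FPKM the 110 members took 0.0971 to 0.129% in T3 tails and 0.0539 to 0.0869% in control tails, which did not overlap. In liver the share was 0.0533 to 0.0659% in T3 livers and 0.0658 to 0.0716% in control livers, where the groups met at the edge. Summed FPKM of all unigenes was itself lower in T3 tails (773936 to 829630) than in control tails (880361 to 989765). Plain sums of the members were 805.3 to 1007.02 FPKM in T3 tails and 533.62 to 764.9 FPKM in control tails. In liver they were 513.74 to 647.86 FPKM in T3 livers and 678.19 to 692.34 FPKM in control livers. These plain sums did not overlap in either tissue. Differences were tested with limma on log2(FPKM + 1), with p-values adjusted by the Benjamini-Hochberg method over all unigenes, and rose and fell are written only of adjusted p below 0.05. In these bulk samples, fewer cells of a type and less RNA in each cell cannot be told apart.

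In the tail 104 members passed the filter on low values, and 18 of these rose (17.3%) and 3 fell (2.88%). Among all 18429 tail unigenes 19.2% rose and 6.23% fell, so the members rose about as often as the rest, and their 3 falls were a smaller share. Of the members, 84 had a positive change, and the median change was 0.45 against 0.31 for all unigenes. Levels did not overlap between T3 and control tails for 44 members that were higher (42.3%) and 5 that were lower (4.81%), against 32.9% and 10.9% of all unigenes. After median-ratio scaling 5 of the 104 members rose, all among the 18 (EZH2, HDAC1, DNMT3A, NSD2 and SDS3). Of the 104, 4 fell, the 3 falls above and NO66. Both were smaller shares than over all unigenes, where 14.8% rose and 13.5% fell. With library sums made equal 31 members rose and 3 fell, where 25.9% and 4.45% of all unigenes did, and with quantile normalization 5 rose and 5 fell, where 13.9% and 13.5% did. The number of rises also turned on single libraries. It was 3 without T3 tail 1 or T3 tail 2, 4 without control tail 3 and 5 without control tail 2. It was 7 without T3 tail 3 and 24 without control tail 1. The same counts over all unigenes were not made, so these are not read as a result about the members. EZH2 and HDAC1 kept their call with each of the 6 libraries left out and DNMT3A with 5 of 6, and the other 15 rises with at most 2 of 6.

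In the liver 91 members passed, and none rose while 3 fell (3.3%). Of all 18923 liver unigenes 3.83% rose and 8.67% fell. At an unadjusted p below 0.05 (limma), 3 members were higher and 16 lower, where the median change of all liver unigenes was itself -0.26. The same count over all unigenes was not made, so this split is not read as a result about the members. The unmoderated single-gene test also called none higher, whereas the stricter filter called 2, median-ratio scaling 1 and quantile normalization 2, all CHD2 unigenes. With median-ratio scaling 5.12% of all liver unigenes rose and 3.77% fell, and with quantile normalization 4.87% and 3.98%, and 1 member, the p300-like unigene, fell under each. With library sums made equal 3 members fell, where 6.54% of all unigenes did. Without control livers 1 and 2, 0.525% of all unigenes rose and 0.288% fell, and no member was called. The members' median change of -0.29 stood beside -0.26 for all unigenes. Levels did not overlap between T3 and control livers for 31 members that were lower (34.1%) and 4 that were higher (4.4%), against 28.2% and 8.61% of all unigenes.

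**Figure D1:**
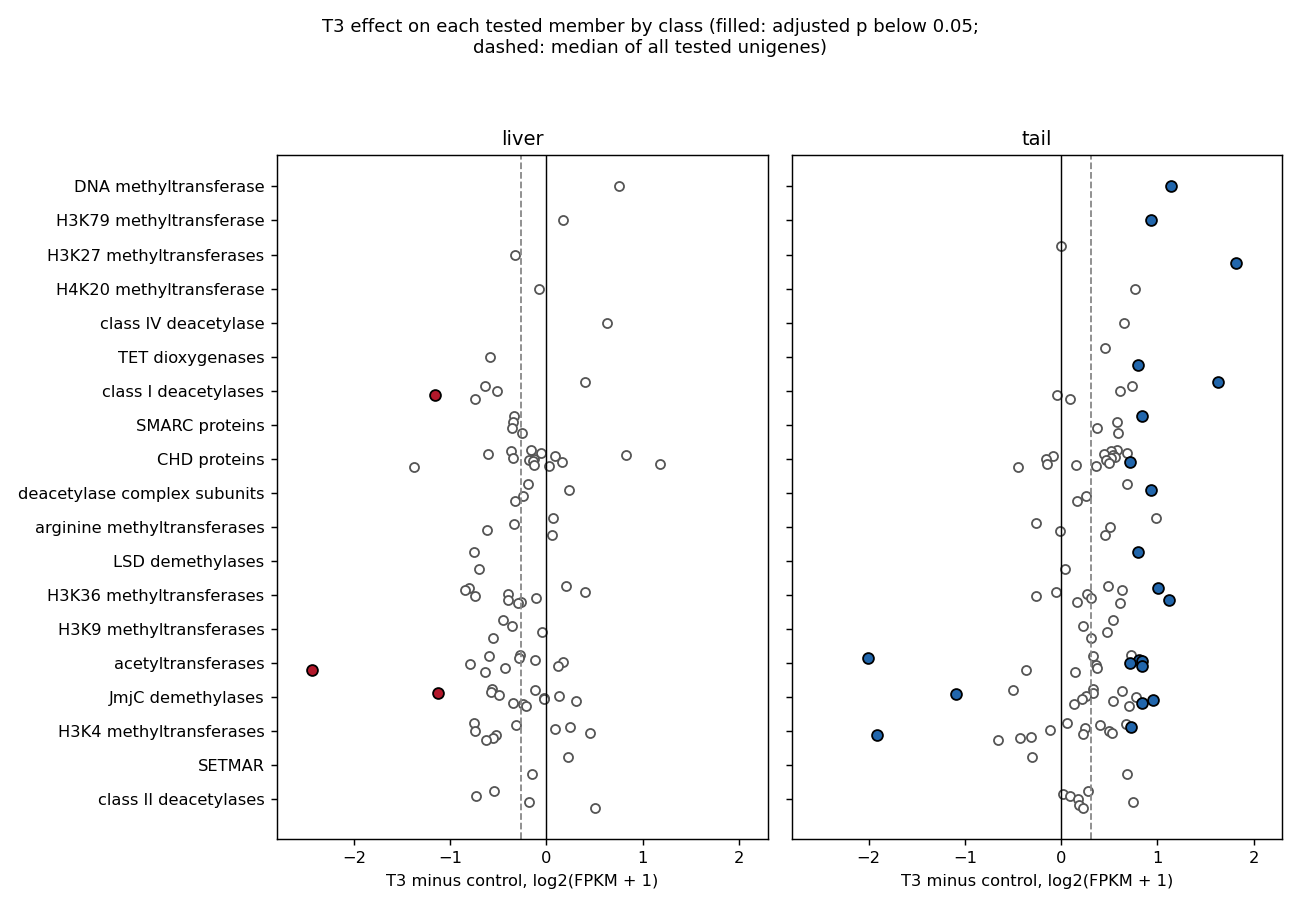
T3 minus control on the log2(FPKM + 1) scale for each tested member, in liver (left) and tail (right), with the 19 classes in rows; filled points have adjusted p below 0.05, and the dashed line is the median of all tested unigenes (-0.26 in liver, 0.31 in tail). The 3 filled points in liver all lie below 0, and the 21 filled points in tail comprise 18 above 0 and 3 below.

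Among enzymes that methylate histones, EZH2 had the largest rise in tail. EZH2, the catalytic subunit of Polycomb repressive complex 2, places the repressive mark on lysine 27 of histone H3. Its unigene (DN98877_c6_g1) was at 15.37, 20.37 and 16.56 FPKM in T3 tails and at 6.38, 4.71 and 2.3 FPKM in control tails. Every T3 tail was above every control tail, and the means differed 3.91-fold. EZH2 rose by 1.82 on the log2 scale (SE 0.32, adjusted p = 0.00257, limma), and by 1.51 after median-ratio scaling (adjusted p = 0.00267). The call was kept with each of the 6 tail libraries left out. In liver EZH2 was at 12.53, 9.53 and 18.08 FPKM in T3 livers and 17.19, 14.94 and 17.55 FPKM in control livers, 2 groups that overlapped (-0.33, adjusted p = 0.438). The T3 tails stood at the level of the livers, and the control tails were the low group. EZH1, the related enzyme of non-dividing cells, was low, at 1.12 to 2.12 FPKM in T3 tails and 1.09 to 2.1 FPKM in control tails (adjusted p = 0.992).

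Transcripts of dividing cells were measured beside these enzymes. As a share of summed FPKM, their 13 unigenes made up 0.0125 to 0.0261% in T3 tails and 0.00582 to 0.0122% in control tails, which did not overlap by a narrow margin. As plain sums they did overlap, with 96.59 FPKM in T3 tail 1 and 107.37 FPKM in control tail 1. In liver the sums were 0.00599 to 0.00955% in T3 livers and 0.00502 to 0.00889% in control livers. In tail 2 of 11 tested rose, MCM7 and cyclin B3, beside the 19.2% of all tail unigenes. The median change of the 11 was 0.87, beside 0.31 for all tail unigenes and 0.45 for the members. The part of dividing cells in the rises of chromatin enzymes was not tested.

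DOT1L (DN97107_c5_g1) was at 4.89, 3.31 and 2.31 FPKM in T3 tails and 0.91, 1.65 and 1.36 FPKM in control tails. The groups did not overlap, and T3 tail 1 stood highest. The unigene entered the tail test through its T3 tails and not its control tails, so its direction was partly set by the filter. DOT1L rose by 0.94 (SE 0.29, adjusted p = 0.0354), but the call was lost after median-ratio scaling (0.68, adjusted p = 0.117) and with 4 of the 6 libraries left out in turn. In liver it was at 1.85, 1.11 and 1.87 FPKM in T3 livers and 1.17, 1.66 and 1.11 FPKM in control livers, with full overlap (0.17, adjusted p = 0.687).

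Of the enzymes of lysine 36 on histone H3, an NSD2 unigene and a SETD2 unigene rose in tail. NSD2 (DN106399_c5_g1), a dimethyltransferase, was at 7.02, 7.11 and 4.96 FPKM in T3 tails and 3.72, 2.76 and 1.7 FPKM in control tails. The groups were apart, and NSD2 rose by 1.01 (SE 0.28, adjusted p = 0.0261) and by 0.72 after median-ratio scaling (adjusted p = 0.0266). The call was lost with 4 of the 6 libraries left out in turn (adjusted p up to 0.105). The other NSD2 unigene (DN102317_c9_g1) overlapped between T3 and control tails and was not called (0.49, adjusted p = 0.218). The SETD2 rise was 1 of 5 SETD2 unigenes, SETD2 being the enzyme of the trimethyl mark on transcribed genes. That unigene (DN83212_c1_g1) was at 2.5, 1.85 and 3.46 FPKM in T3 tails and 1.73, 0.6 and 0 FPKM in control tails, where control tail 3 was listed at 0 (1.12, adjusted p = 0.0453). It entered the tail test through its T3 tails and not its control tails, so its direction was partly set by the filter. The other 4 SETD2 unigenes were not called in either tissue, and the median change of the 10 tested lysine 36 methyltransferases was 0.40 in tail and -0.35 in liver.

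Of the methyltransferases, SMYD1 alone fell in tail. It is a muscle enzyme that, in zebrafish and mouse, is needed to build sarcomeres. Its unigene (DN88283_c0_g1) was at 7.41, 13.34 and 14.42 FPKM in T3 tails and at 47.76, 38.78 and 50.57 FPKM in control tails. The lowest control tail was well above the highest T3 tail, and the mean was 3.90 times higher in control tails. SMYD1 fell by 1.92 (SE 0.29, adjusted p = 0.00115) and kept its call in all 10 other settings and with each library left out. In liver it was at 0.11 FPKM or less in all 6 libraries. The summed level of 27 skeletal muscle unigenes was also lower, with a mean of 3.85 ± 0.915% in T3 tails and 7.50 ± 2.32% in control tails (SD, n = 3 each), and 1 or 2 of the 27 were at 0 in a T3 tail and 3 or 4 in a control tail. The part of muscle content in the change of SMYD1 was not tested.

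The enzymes of lysine 4 on histone H3 as a class gave 1 rise and 1 fall among 13 tested in tail and no call among 9 in liver. The rise was a unigene described as KMT2C, the catalytic subunit of a complex that methylates enhancers. It was at 3.87, 3.57 and 2.81 FPKM in T3 tails and 1.78, 1.51 and 1.66 FPKM in control tails (0.73, adjusted p = 0.0470). A higher unigene described as MLL3 (DN120599_c11_g1), another name for KMT2C, was not called in tail. It was at 6.37, 5.39 and 3.87 FPKM in T3 tails and 3.68, 3.92 and 2.56 FPKM in control tails, which overlapped (0.49, adjusted p = 0.196). The 4 enzymes of lysine 9, EHMT1, EHMT2, SETDB1 and SETDB2, had positive changes in tail and negative ones in liver, and none was called. EHMT2, the highest of them, was at 11.25 to 12.26 FPKM in T3 tails and 5.81 to 13.08 FPKM in control tails, which overlapped. SUV420H1, of lysine 20 on histone H4, was at 11.87 to 14.55 FPKM in T3 tails and 5.32 to 9.38 FPKM in control tails, 2 groups apart whose difference missed the threshold (0.77, adjusted p = 0.0572).

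Arginine methyltransferases gave no call in either tissue. PRMT1, a coactivator of the frog thyroid hormone receptor, was at 62.89, 125.33 and 88.92 FPKM in T3 tails and 72.24, 40.66 and 29.36 FPKM in control tails. Control tail 1 exceeded T3 tail 1, so the groups overlapped, and the change of 0.99 had an adjusted p of 0.0654 (limma). In liver PRMT1 was at 22.16 to 42.05 FPKM in T3 livers and 24.02 to 33.94 FPKM in control livers. CARM1 was described with other words and is no member, and its unigene was not called in tail (0.49, adjusted p = 0.263) or liver (-0.71, adjusted p = 0.110).

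**Figure D2:**
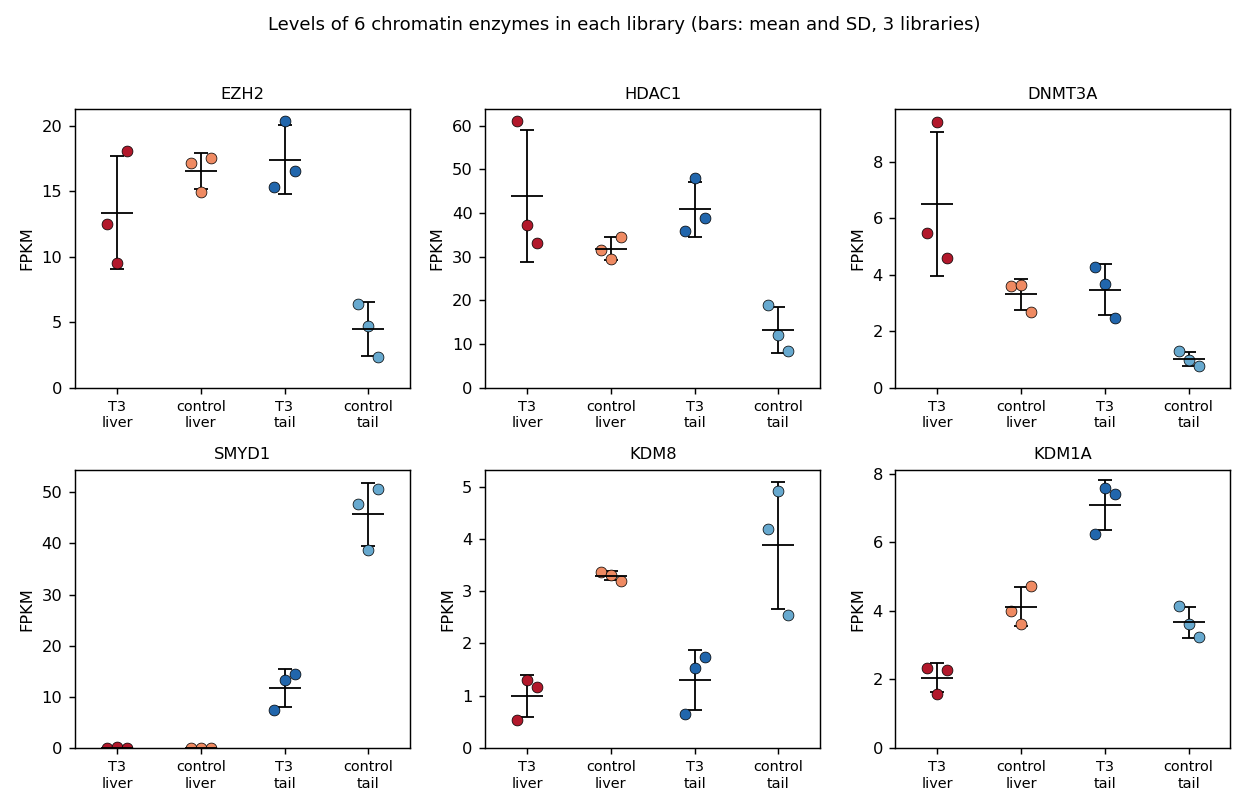
FPKM of EZH2, HDAC1, DNMT3A, SMYD1, KDM8 and KDM1A in each library, in the order T3 liver, control liver, T3 tail, control tail; points are libraries and bars the mean and SD of 3. EZH2 was at 15.37 to 20.37 FPKM in T3 tails against 2.3 to 6.38 FPKM in control tails, SMYD1 at 7.41 to 14.42 FPKM against 38.78 to 50.57 FPKM, and KDM8 was lower with T3 in both tissues.

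Demethylases moved in both directions. KDM8, a JmjC-domain oxygenase annotated as lysine-specific demethylase 8, was the only member called in both tissues (DN109173_c8_g1). It was at 0.53, 1.29 and 1.16 FPKM in T3 livers and 3.37, 3.32 and 3.2 FPKM in control livers. The control livers lay close together and all above the T3 livers, and KDM8 fell by 1.13 (SE 0.24, adjusted p = 0.0275). In tail it was at 0.64, 1.52 and 1.73 FPKM in T3 tails and 4.19, 4.92 and 2.54 FPKM in control tails, again apart. There KDM8 fell by 1.09 (SE 0.30, adjusted p = 0.0240). Both T3 levels were near the 1 FPKM minimum. In each tissue KDM8 entered the test through its controls and not its T3 libraries, so its direction was partly set by the filter. The liver call was lost after median-ratio scaling (-0.92, adjusted p = 0.0697) and without control livers 1 and 2, with 1 control left (-1.10, adjusted p = 0.312), while the tail call was kept under that scaling (-1.33, adjusted p = 0.00790) but lost with 3 of the 6 libraries left out in turn (adjusted p up to 0.102).

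KDM4B, which acts on lysine 9, rose in tail: it was at 8.36, 10.27 and 5.85 FPKM in T3 tails and 5.84, 3.28 and 2.39 FPKM in control tails. The lowest T3 tail and the highest control tail almost touched (0.95, adjusted p = 0.0493). KDM5B, a demethylase of lysine 4, was at 16.4, 19.9 and 13.77 FPKM in T3 tails and 9.61, 9.77 and 7.15 FPKM in control tails. Its groups were apart, and it rose by 0.84 (adjusted p = 0.0351). KDM3A, the highest JmjC demethylase among the members, was at 14.33 to 31.8 FPKM in T3 tails and 11.03 to 13.68 FPKM in control tails, apart but not called (0.77, adjusted p = 0.0834).

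KDM1A (LSD1), the amine oxidase of the CoREST complex, which removes methyl groups from lysine 4, went apart in both tissues and in opposite directions. It was at 2.32, 1.57 and 2.26 FPKM in T3 livers and 4.01, 3.61 and 4.73 FPKM in control livers, a lower level that was not called (-0.75, adjusted p = 0.0709). In tail it was at 6.25, 7.59 and 7.42 FPKM in T3 tails and 4.13, 3.61 and 3.24 FPKM in control tails, and KDM1A rose by 0.80 (SE 0.24, adjusted p = 0.0330). The tail call was lost after median-ratio scaling (0.49, adjusted p = 0.0601). KDM1B, the other enzyme of this kind, was not called in tail (0.04, adjusted p = 0.937).

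Among acetyltransferases, 4 unigenes were described as p300, the coactivator that acetylates histones at enhancers, and the 3 that could be tested were called in different tissues and directions. The highest, described as p300-like (DN96807_c8_g1), was at 5.85, 3.43 and 8.23 FPKM in T3 livers and 37.8, 28.73 and 37.29 FPKM in control livers. The T3 livers lay far below every control liver, and the mean was 5.93 times higher in control livers. It fell by 2.43 (SE 0.30, adjusted p = 0.00373), the largest change of any member in liver, and the call was kept with each library left out and after median-ratio scaling (-2.15, adjusted p = 0.00486). Without control livers 1 and 2 the change was -2.55 but no longer called (adjusted p = 0.116). Pancreas transcripts made up 8.08 and 9.98% in control livers 1 and 2, where the unigene was at 37.8 and 28.73 FPKM. In control liver 3 they made up 0.0399%, and the unigene was at 37.29 FPKM. The part of pancreas content in the fall was not tested. Leukocyte transcripts, 12 unigenes, also separated the livers, at 0.0332 to 0.0674% in T3 livers and 0.102 to 0.788% in control livers, and their part in the fall was not tested. In tail the same unigene was at 13.64, 17.6 and 28.6 FPKM in T3 tails and 30, 17.54 and 28.93 FPKM in control tails, which overlapped (-0.36, adjusted p = 0.431).

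A partial p300 unigene (DN111451_c0_g1) fell instead in tail. It was at 1.45, 0.97 and 1.51 FPKM in T3 tails and 15.62, 4.67 and 7.41 FPKM in control tails, where control tail 1 was far above the other controls. The groups were apart by a wide margin, and it fell by 2.01 (SE 0.37, adjusted p = 0.00326), with the call kept in each library left out. It entered the tail test through its control tails and not its T3 tails, so its direction was partly set by the filter. The third, described as p300 isoform X1 (DN117813_c2_g1), was at 3.15, 2.6 and 2.83 FPKM in T3 tails and 1.17, 1.57 and 1.32 FPKM in control tails. It rose by 0.71 (adjusted p = 0.0487), but lost its call with any 1 of the 6 libraries left out. The fourth (DN117314_c0_g2) was below 2 FPKM in every library and was tested in neither tissue. The isoform X1 unigene had its best match in the frog Xenopus tropicalis, and the other 3 had theirs in another vertebrate, Latimeria chalumnae. Whether these are pieces of 1 gene, and which of them is the p300 gene, was not tested beyond these matches, so no direction is given for p300 as such.

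**Figure D3:**
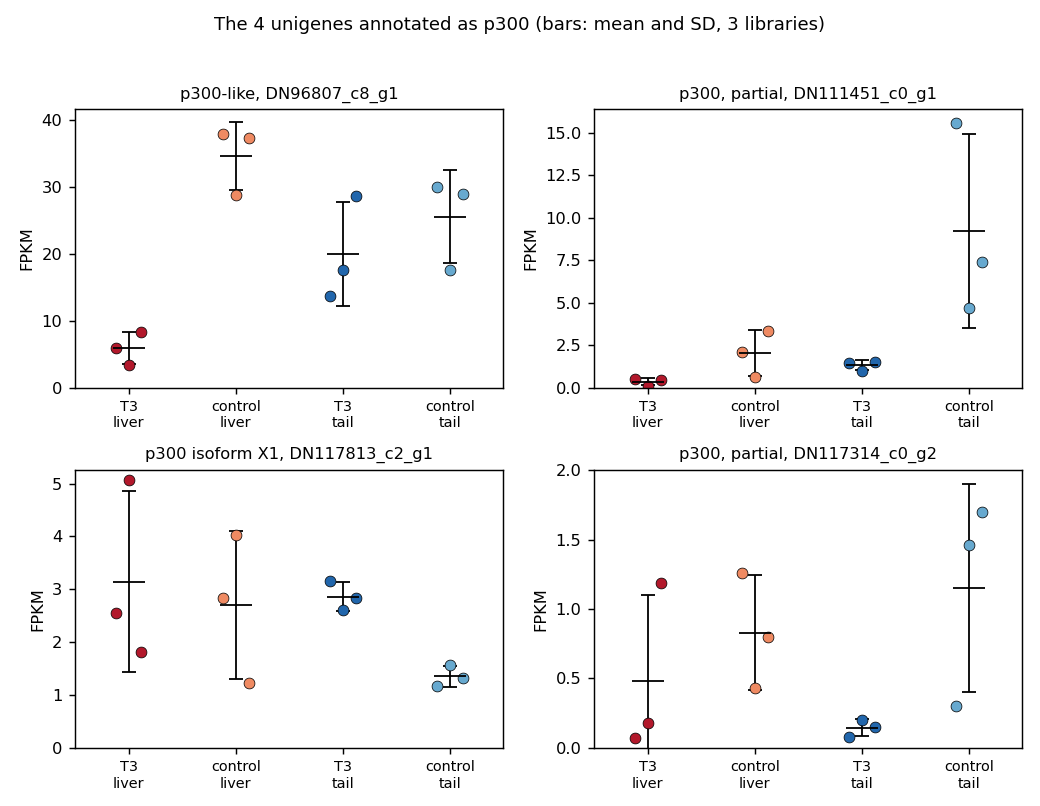
FPKM of the 4 unigenes described as p300 in T3 liver, control liver, T3 tail and control tail libraries; points are libraries and bars the mean and SD of 3. The p300-like unigene was at 3.43 to 8.23 FPKM in T3 livers against 28.73 to 37.8 FPKM in control livers, the partial unigene DN111451_c0_g1 at 0.97 to 1.51 FPKM in T3 tails against 4.67 to 15.62 FPKM in control tails, and isoform X1 was higher in T3 tails than in control tails.

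The other acetyltransferase calls were rises in tail. HAT1, which acetylates newly made histone H4, was at 19.34, 27.51 and 23.22 FPKM in T3 tails and 16.26, 13.04 and 9.13 FPKM in control tails (0.84, adjusted p = 0.0478). KAT2A, of the SAGA complex, was at 2.86, 4.11 and 3.35 FPKM in T3 tails and 1.16, 2.07 and 1.27 FPKM in control tails (0.84, adjusted p = 0.0380). Of 2 KAT6A unigenes, 1 (DN116258_c5_g1) was at 9.63, 8.1 and 7.16 FPKM in T3 tails and 4.92, 4.21 and 3.76 FPKM in control tails (0.81, adjusted p = 0.0343). In all 3 the groups were apart, and none of the 3 was called after median-ratio scaling. KAT2B (PCAF), a coactivator that binds p300, was at 0.63, 1.16 and 0.77 FPKM in T3 livers and 1.79, 2.84 and 2.06 FPKM in control livers. Those livers did not overlap, but the change was not called (-0.80, adjusted p = 0.0729). KAT2B entered the liver test through its control livers and not its T3 livers, so its direction was partly set by the filter.

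Histone deacetylases of class I are the catalytic subunits of corepressor complexes. HDAC1 (DN104524_c4_g1), found in the Sin3, NuRD and CoREST complexes, was at 35.9, 48.01 and 38.81 FPKM in T3 tails and 18.81, 12.03 and 8.42 FPKM in control tails. Even the lowest T3 tail was well above the highest control tail, and the means differed 3.13-fold. HDAC1 rose by 1.63 (SE 0.30, adjusted p = 0.00364), by 1.28 after median-ratio scaling (adjusted p = 0.00258), and kept the call with each library left out. In liver it was at 61.11, 37.36 and 33.07 FPKM in T3 livers and 31.55, 29.41 and 34.53 FPKM in control livers. Only T3 liver 1 stood high there, and the groups overlapped (0.40, adjusted p = 0.341).

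HDAC2, the close partner of HDAC1, was at 23.86, 36.34 and 25.56 FPKM in T3 tails and 17.51, 16.83 and 15.32 FPKM in control tails. These groups were apart, with an adjusted p of 0.0558 (limma). In liver HDAC2 went the other way without a call, at 11.26, 7.91 and 7.17 FPKM in T3 livers and 12.93, 14.81 and 14.34 FPKM in control livers. HDAC3, the deacetylase of nuclear receptor corepressor complexes, was at 8.92, 11.52 and 12 FPKM in T3 tails and 7.68, 6.85 and 5.71 FPKM in control tails. In liver it was at 4.28, 2.87 and 3.8 FPKM in T3 livers and 5.28, 6.33 and 5.19 FPKM in control livers. Neither tissue overlapped and neither was called (tail 0.61, adjusted p = 0.0968, and liver -0.51, adjusted p = 0.174).

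HDAC8 had 2 unigenes. The first (DN122427_c2_g1) was at 11.68, 5.57 and 9.43 FPKM in T3 livers and 17.85, 22.25 and 21 FPKM in control livers. All T3 livers were lower, and HDAC8 fell by 1.16 (SE 0.28, adjusted p = 0.0379), a call lost after median-ratio scaling (-0.87, adjusted p = 0.0686), without control livers 1 and 2 (-1.21, adjusted p = 0.352) and with 4 of 6 libraries left out in turn. The second (DN122427_c4_g4) was also apart and lower in liver, without a call (-0.74, adjusted p = 0.0884). Neither changed in tail past the test.

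**Figure D4:**
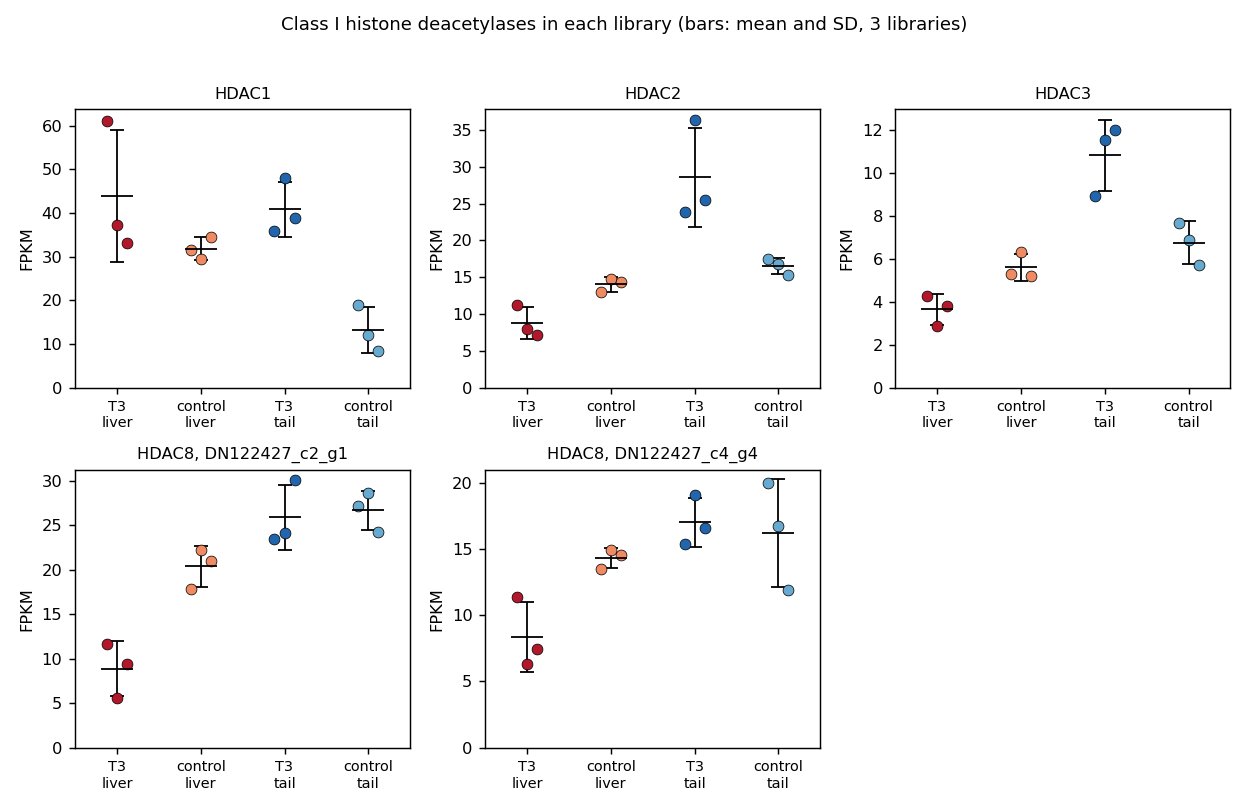
FPKM of the 5 class I deacetylase unigenes in T3 liver, control liver, T3 tail and control tail libraries; points are libraries and bars the mean and SD of 3. HDAC1 was at 35.9 to 48.01 FPKM in T3 tails against 8.42 to 18.81 FPKM in control tails, and the first HDAC8 unigene at 5.57 to 11.68 FPKM in T3 livers against 17.85 to 22.25 FPKM in control livers.

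The 7 class II deacetylase unigenes (HDAC4, HDAC5, HDAC6, HDAC7 and HDAC9), which shuttle between nucleus and cytoplasm or act on tubulin, gave no call in either tissue. HDAC7, the highest of them, was at 6.46 to 8.44 FPKM in T3 tails and 4.04 to 7.63 FPKM in control tails. HDAC11, the only class IV enzyme, ran at 5.4 to 5.62 FPKM in T3 tails and 2.73 to 3.95 FPKM in control tails, apart but not called (0.65, adjusted p = 0.0718). Of 4 deacetylase complex subunits, SDS3, a dimerizing subunit of the Sin3 complex, rose in tail. SDS3 was at 7.76, 9.28 and 9.08 FPKM in T3 tails and 5.31, 3.78 and 3.33 FPKM in control tails, with the T3 tails clearly above. It rose by 0.93 (SE 0.25, adjusted p = 0.0220) and by 0.62 after median-ratio scaling (adjusted p = 0.0235), and lost the call with 4 of the 6 libraries left out in turn (adjusted p up to 0.0962).

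Of the DNA methylation enzymes, DNMT3A and TET2 rose in tail. Each entered the tail test through its T3 tails and not its control tails, so its direction was partly set by the filter. DNMT3A, which sets new cytosine methylation, was at 4.27, 3.65 and 2.48 FPKM in T3 tails and 1.28, 0.97 and 0.77 FPKM in control tails. The groups were apart, the means differed 3.44-fold, and DNMT3A rose by 1.14 (SE 0.26, adjusted p = 0.0105) and by 0.91 after median-ratio scaling (adjusted p = 0.0155). The call was lost only narrowly with T3 tail 1 left out (adjusted p = 0.0505). In liver DNMT3A was at 5.49, 9.42 and 4.6 FPKM in T3 livers and 3.59, 3.64 and 2.67 FPKM in control livers. The T3 livers were all higher, but the change was not called (0.76, adjusted p = 0.125). DNMT1, the maintenance enzyme, was described with other words, is no member, and was not called in tail (0.74, adjusted p = 0.0672).

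TET2 and TET3 oxidize methylcytosine and so start its removal. TET2 was at 2.11, 2.34 and 1.67 FPKM in T3 tails and 1.11, 0.77 and 0.41 FPKM in control tails, and it rose by 0.80 (adjusted p = 0.0459), not called after median-ratio scaling (0.62, adjusted p = 0.0527). In liver it stayed under 1 FPKM in all libraries. TET3 was at 4.9 to 5.87 FPKM in T3 tails and 3.12 to 4.3 FPKM in control tails, apart but not called (0.45, adjusted p = 0.189).

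The remodellers among the members use ATP to move nucleosomes and do not modify histones themselves. SMARCC1 is a core subunit of the SWI/SNF complex, and 1 of its 2 unigenes (DN100123_c2_g1) was at 22.1, 27.57 and 17.51 FPKM in T3 tails and 14.57, 12.55 and 8.98 FPKM in control tails. It rose by 0.85 (adjusted p = 0.0461), not called after median-ratio scaling (0.50, adjusted p = 0.0569). Of the 7 CHD4-like unigenes, CHD4 being the helicase of the NuRD complex, 1 rose in tail. That unigene (DN117477_c0_g1) was at 46.79, 44.96 and 38.01 FPKM in T3 tails and 28.08, 25.36 and 24.42 FPKM in control tails (0.71, adjusted p = 0.0449).

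CHD2, a remodeller that deposits the histone variant H3.3, had the largest positive changes in liver. Its higher unigene (DN119069_c3_g2) was at 17.6, 22.24 and 8.97 FPKM in T3 livers and 7.05, 5.74 and 5.84 FPKM in control livers. The other (DN109763_c4_g1) was at 3.01, 2.4 and 3.24 FPKM in T3 livers and 0.81, 1.09 and 1.73 FPKM in control livers. Both were apart between the groups, and neither was called on the deposited scale (1.18, adjusted p = 0.0559, and 0.83, adjusted p = 0.0696). After median-ratio scaling the second was called (adjusted p = 0.0370), and after quantile normalization both were. The second entered the liver test through its T3 livers and not its control livers, so its direction was partly set by the filter.

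Whether liver and tail responded differently was tested directly, as the T3 effect of liver minus that of tail in 1 model of the 12 libraries. The difference was below 0 for 16 of 110 members (14.5%) and above 0 for 2 (1.82%), beside 14.3% and 3.48% of all 24085 unigenes. In 14 of the 16, the change was negative in liver and positive in tail. Selection for a difference below 0 favours these signs. The same count over all unigenes called below 0 was not made, so the 14 are not read as a result about the members. Of the 16, 7 were called in tail. Of the 87 members tested in both tissues, 56 were negative in liver and positive in tail, 20 positive in both, 10 negative in both and 1 positive in liver and negative in tail, or 64.4%, 23%, 11.5% and 1.15%. Of all 14251 unigenes tested in both, 48.2%, 21.5%, 24.2% and 6.18% were in those classes. After median-ratio scaling 28.7% of the members were negative in liver and positive in tail, beside 23.3% of all unigenes. The 2 tissues share no libraries. After median-ratio scaling the count below 0 was 2 (EZH2 and KDM1A), where 5.07% of all unigenes were called below 0 and 6.72% above. It was 25 with library sums made equal (18.3% below and 2.96% above over all unigenes), 3 with quantile normalization (5.88% and 6.01%) and 2 without control livers 1 and 2 (3.76% and 1.45%).

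EZH2 had the largest difference, -2.15 (SE 0.42, adjusted p = 0.00533), or -1.44 after median-ratio scaling (adjusted p = 0.00837). KDM1A had the smallest p of the negative calls, with a difference of -1.55 (SE 0.29, adjusted p = 0.00390), or -0.95 after that scaling (adjusted p = 0.0185). Both kept the call in all 11 other settings and with each of the 12 libraries left out. The p300-like unigene differed by -2.07 (adjusted p = 0.0102), from its low level in T3 livers, but was not called after median-ratio scaling (-1.39, adjusted p = 0.0749).

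NSD3, a relative of NSD2, was called for the difference although in neither tissue alone. It was at 3.48, 2.45 and 3.27 FPKM in T3 livers and 5.58, 6.51 and 6.19 FPKM in control livers, and at 6.96, 5.77 and 4.94 FPKM in T3 tails and 3.68, 4.25 and 2.53 FPKM in control tails. Both tissues were apart in opposite directions, with a difference of -1.44 (adjusted p = 0.00915). The same held for HDAC2 (-1.37, adjusted p = 0.0114) and HDAC3 (-1.12, adjusted p = 0.0240). KAT2B differed by -1.16 (adjusted p = 0.0236). For NSD3, HDAC2, HDAC3 and KAT2B the call was lost after median-ratio scaling, where NSD3 was at -0.83 (adjusted p = 0.0519).

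The 2 differences above 0 belonged to SMYD1 and CHD2. SMYD1 differed by 1.95 (SE 0.34, adjusted p = 0.00282), which came from its fall in tail, since the unigene was near 0 in liver. The higher CHD2 unigene was at 10.68, 11.8 and 7.17 FPKM in T3 tails and 10.5, 10.7 and 11.25 FPKM in control tails, so its difference of 1.32 (adjusted p = 0.0425) came from the higher level in T3 livers. After median-ratio scaling CHD2 differed by 2.04 (adjusted p = 0.0146). DOT1L, HDAC1 and DNMT3A, although called in tail only, were not called for the difference between tissues, where HDAC1 came closest (-1.23, adjusted p = 0.0537).

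**Figure D5:**
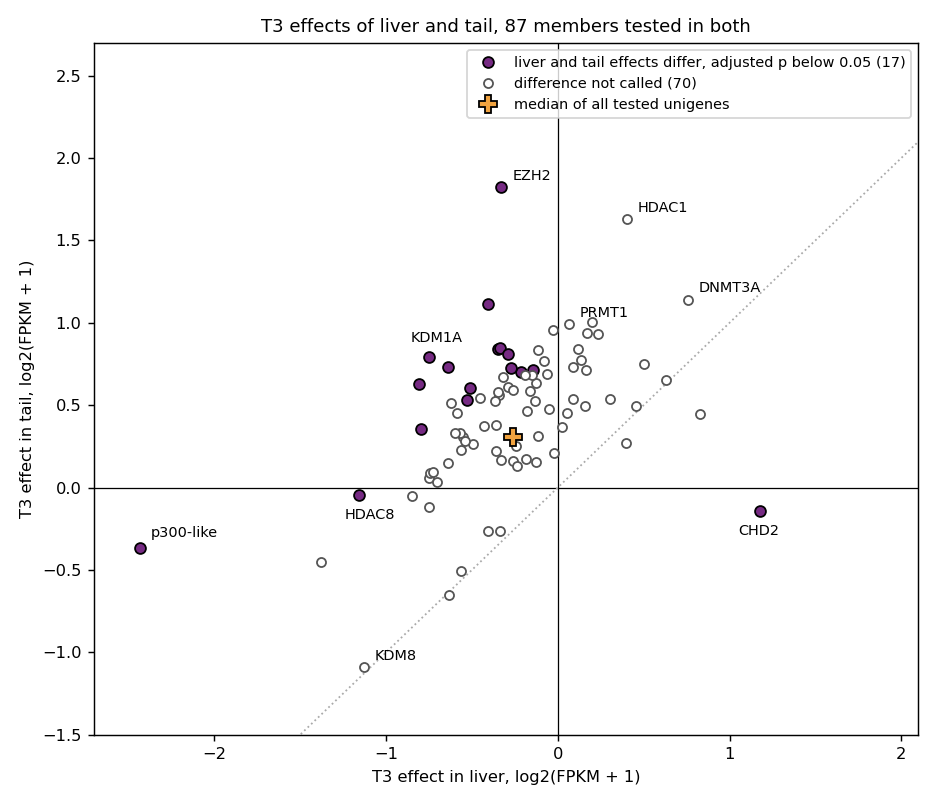
T3 effect in liver (horizontal) and in tail (vertical), both on the log2(FPKM + 1) scale, for the 87 members tested in both tissues; filled points are the 17 whose effects differed at adjusted p below 0.05, the cross marks the median of all tested unigenes (-0.26 in liver, 0.31 in tail) and the dotted line equal effects. EZH2 lies at -0.33 and 1.82, KDM8 close to the dotted line at -1.13 and -1.09, and CHD2 at 1.18 and -0.14.

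Untreated levels also differed by tissue. Control livers were higher than control tails for 20 of 110 members (18.2%) and lower for 12 (10.9%), beside 22.5% and 20.4% of all unigenes. Levels did not overlap for 23 higher (20.9%) and 22 lower (20%), beside 28.5% and 24.7%. The counts were 22 and 15 after median-ratio scaling (24.4% and 21% of all unigenes), 16 and 19 after quantile normalization (20.4% and 25.2%), and 12 and 14 with library sums made equal (19.8% and 20.9%). EZH2 was at 17.19, 14.94 and 17.55 FPKM in control livers and 6.38, 4.71 and 2.3 FPKM in control tails (1.76, adjusted p = 0.000388). HDAC1 was at 31.55, 29.41 and 34.53 FPKM in control livers and 18.81, 12.03 and 8.42 FPKM in control tails (1.28, adjusted p = 0.00291). DNMT3A was at 3.59, 3.64 and 2.67 FPKM in control livers and 1.28, 0.97 and 0.77 FPKM in control tails (1.10, adjusted p = 0.00486). This comparison uses the same control tails as the T3 effect in tail.

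Of 18 CHD unigenes 7 were higher in control liver, and of 11 lysine 36 methyltransferases 5 were higher and 1, SETD3, was lower. Of all unigenes 22.5% were higher and 20.4% lower. The classes are small, and the calls include CHD4-like and SETD2 unigenes that share a name, so they are not independent genes for certain. Among these calls, CHD4-like DN108870_c6_g2 and SETD2 DN72445_c1_g1 met the level minimum through their livers and not their tails. The direction of both was therefore partly set by the filter. The CHD4-like unigene DN117477_c1_g1 was at 64.37, 69.9 and 56.17 FPKM in control livers and 27.25, 23.53 and 25.28 FPKM in control tails (1.29, adjusted p = 0.000152). CHD6, another chromodomain helicase, was at 9.07, 10.24 and 9.36 FPKM in control livers and 3.13, 3.11 and 2.73 FPKM in control tails (1.40, adjusted p = 0.00293). MLL5 (KMT2E), which has a SET domain but little known enzyme activity, was at 11.1, 11.42 and 12.51 FPKM in control livers and 4.01, 4.81 and 4.44 FPKM in control tails (1.23, adjusted p = 0.000892). In each of these the tissues were far apart.

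On the tail side SMYD1 was at 0.04 FPKM or less in control livers and 38.78 to 50.57 FPKM in control tails (-5.52, adjusted p = 7.09e-10). The 7 class II deacetylase unigenes, which carry 5 gene names, were lower in control liver without exception in sign, and 3 were called. Signs were not counted over all unigenes, so this is not read as a trait of the class. HDAC9, a muscle and neuron deacetylase in mammals, was at 0.14, 0 and 0.12 FPKM in control livers and 1.95, 0.93 and 1.57 FPKM in control tails (-1.17, adjusted p = 0.00207). SMYD1, HDAC4, HDAC5 and HDAC9 met the level minimum through their tails and not their livers, so their direction was partly set by the filter. SETD3, a SET-domain protein that in mammals methylates actin, was at 1.62, 1.63 and 0.87 FPKM in control livers and 4.38, 3.22 and 2.78 FPKM in control tails (-0.91, adjusted p = 0.00490). KDM3B, a demethylase of lysine 9, was at 8.12, 6.53 and 9.18 FPKM in control livers and 20.91, 17.9 and 11.34 FPKM in control tails (-0.96, adjusted p = 0.00667). PRMT7, an arginine monomethyltransferase, was at 0.79, 1.14 and 0.65 FPKM in control livers and 2.73, 2.8 and 1.93 FPKM in control tails (-0.91, adjusted p = 0.00589). PRMT7 also met the level minimum through its tails and not its livers, so the same limit holds for its direction.

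The 2 SETMAR-like unigenes given here each met the level minimum through 1 tissue only, so a difference between tissues was partly set by the filter. The first (DN118588_c3_g5) was at 2.78, 1.12 and 2.22 FPKM in control livers and listed at 0 in all 6 tails, while another (DN120447_c5_g3) was listed at 0 in all control livers and at 1.6, 0.49 and 1 FPKM in control tails. SETMAR joins a SET domain to a mariner transposase in anthropoid primates, and which portion the frog unigenes hold is not known from their descriptions. Neither changed with T3 past the test. Without control livers 1 and 2, with 1 control liver left, 7 members were called higher and 3 lower in control liver (12.3% and 12.4% of all unigenes), EZH2, HDAC1, SMYD1, SETD3 and PRMT7 among them.

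Partners of these enzymes, 138 unigenes in lists of receptor cofactors, complex subunits, other remodellers, sirtuins, histone readers and enzymes under other wording, gave 25 rises and 2 falls among 93 tested in tail and 2 rises and 4 falls among 87 tested in liver. After median-ratio scaling, an alternative chosen after seeing the data, the counts were 20 and 5 in tail and 2 and 3 in liver. Of 13 tested thyroid hormone receptor cofactors 7 rose in tail, or 5 after that scaling. NCOR1 (DN108883_c0_g1), the corepressor that holds HDAC3 on the receptor, was at 16.67, 15.83 and 15.45 FPKM in T3 tails and 6.52, 4.71 and 4.66 FPKM in control tails (1.44, adjusted p = 0.00213), and it rose by 1.11 after median-ratio scaling (adjusted p = 0.00302). Every T3 tail was far above every control tail.

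Among complex partners, protein Jumonji (JARID2), which guides EZH2 to its targets, rose in both tissues. JARID2 was the only 1 called of 9 tested Polycomb and COMPASS partners in tail, and of 9 in liver. It was at 15.25, 14.35 and 9.64 FPKM in T3 livers and 5.23, 6.73 and 3.96 FPKM in control livers (1.16, adjusted p = 0.0335). In tail it was at 22.09, 31.31 and 15.99 FPKM in T3 tails and 7.64, 8.64 and 7.14 FPKM in control tails (1.41, adjusted p = 0.00541), and in both tissues the groups were apart. JARID2 was called after median-ratio scaling as well, by 1.44 in liver (adjusted p = 0.0248) and 1.06 in tail (adjusted p = 0.0139). Of 10 NuRD, Sin3 and CoREST partners 3 rose in tail, with RCOR2 at 3.59, 4.39 and 2.85 FPKM in T3 tails and 0.34, 0.16 and 0.36 FPKM in control tails (1.83, adjusted p = 0.000666), or 1.64 after median-ratio scaling (adjusted p = 0.00177). RCOR2 entered the tail test through its T3 tails only, so its direction was partly set by the filter. Of 24 tested remodellers under other wording 5 rose in tail, and of 14 enzymes under other wording 5 did, among them KDM5C and KDM6B, with 4 each after median-ratio scaling. Of 17 tested histone readers and chaperones 3 rose in tail and 1 fell, and of 6 tested sirtuins 1 rose and 1 fell. The 138 were listed from descriptions with earlier results of these data known, and their tail share is to be read against the 19.2% of all unigenes, or 14.8% after that scaling.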

How the data were processed

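RNA from liver and tail was sequenced by the authors as paired-end Illumina reads, assembled de novo with Trinity and annotated against NR proteins. Reads were mapped with Bowtie and quantified with RSEM, and the authors deposited 1 table of FPKM values per unigene and library, which corrects for length and library size but not for composition. Read totals were not given in the sources used here, so depth is known only as a ratio between libraries. The dose, days and stages come from the study's methods.

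FPKM + 1 was log2-transformed, which understates changes of low unigenes. A unigene entered a comparison when 3 or more of its libraries reached 1 FPKM. The test was limma 3.58.1 (trended variance, R 4.3.3), with Benjamini-Hochberg adjustment across every unigene tested and a threshold of 0.05. Each tissue was fitted on its 6 libraries, and the difference between tissues and the comparison of control tissues on all 12. The code was tested on simulated data. The alternatives were pseudocounts of 0.1 and 5, other filters, sum, median-ratio and quantile scaling, no variance trend, an unmoderated test, the replicate number as a block, each library left out, and control livers 1 and 2 left out. Named by rule were the 10 largest called rises and 10 largest called falls per tissue, the highest member of each class, the 8 largest called differences between tissues in T3 effect and, in each direction, in control level, and enzymes tied to the thyroid hormone receptor. All other members in the text were added after their values were seen. Partner lists were also refitted with median-ratio scaling. Members and lists were chosen with earlier results of these data known. Plots were drawn with matplotlib 3.10.9.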

Additional observations from a re-analysis of the deposited data

Results flagged for a closer look

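For 13 named members the T3 effects of liver and tail differed by the test of the difference itself (liver effect minus tail effect, log2 scale, limma on 12 libraries with Benjamini-Hochberg adjustment). The methyltransferases were EZH2 (-2.15, adjusted p = 0.00533), a SETD2 unigene (-1.52, adjusted p = 0.0440), NSD3 (-1.44, adjusted p = 0.00915) and SMYD1 (1.95, adjusted p = 0.00282). The demethylases were KDM1A (-1.55, adjusted p = 0.00390) and KDM5B (-1.19, adjusted p = 0.0247). Among acetyltransferases they were the p300-like unigene (-2.07, adjusted p = 0.0102) and KAT2B (-1.16, adjusted p = 0.0236). Among class I deacetylases they were HDAC2 (-1.37, adjusted p = 0.0114), HDAC3 (-1.12, adjusted p = 0.0240) and an HDAC8 unigene (-1.11, adjusted p = 0.0413). The remodellers were a SMARCC1 unigene (-1.18, adjusted p = 0.0402) and a CHD2 unigene (1.32, adjusted p = 0.0425). After median-ratio scaling EZH2, KDM1A, SMYD1 and CHD2 were called among them.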

How the results depend on the processing

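Counts of called members moved with the scaling more than with the pseudocount. In liver the rises, 0 as deposited, were 2 with the stricter filter, 1 with median-ratio scaling and 2 with quantile normalization. The liver falls, 3 as deposited, were 1 with no filter, 8 with the stricter filter, 1 with median-ratio scaling, 1 with quantile normalization, 1 in the unmoderated test and 0 without control livers 1 and 2. The tail rises, 18 as deposited, were 3 with no filter, 31 with sum scaling, 5 with median-ratio scaling, 5 with quantile normalization and 6 in the unmoderated test, and the tail falls, 3 as deposited, were 5 with quantile normalization and 1 in the unmoderated test. After median-ratio scaling the tail split was 5 rises and 4 falls. Differences above 0, 2 as deposited, were 1 with a pseudocount of 0.1, with no filter, with sum scaling, in the unmoderated test and without control livers 1 and 2. Differences below 0, 16 as deposited, were 10 with a pseudocount of 0.1, 5 with no filter, 25 with sum scaling, 2 with median-ratio scaling, 3 with quantile normalization and 2 without control livers 1 and 2. Members higher in control liver than control tail, 20 as deposited, were 12 with no filter, 12 with sum scaling and 7 without control livers 1 and 2, and members lower, 12 as deposited, were 19 with quantile normalization and 3 without those livers. The cause was not tested. Besides the deposited scale, shares over all unigenes were counted only for sum, median-ratio and quantile scaling and without control livers 1 and 2. Counts under the other settings, single libraries left out among them, are therefore not read as results about the members.

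With each library left out in turn, liver rises ranged over 0 to 1 and falls over 1 to 4, tail rises over 3 to 24 and falls over 2 to 3, differences above 0 over 1 to 2 and below 0 over 5 to 27, and tissue calls over 11 to 16 higher and 7 to 16 lower. Same-numbered T3 and control libraries had correlated deviations of 0.0255 to 0.209, not all over 0.1, so the numbers were not taken as pairs. For liver and tail of 1 number they were 0.0678 to 0.166 in controls and -0.0729 to 0.166 with T3. Libraries of different numbers ranged over -0.211 to 0.115. Whether the numbers mark pairs is not known. With the replicate block there were 0 rises and 2 falls in liver, 13 and 3 in tail, 2 differences above 0 and 12 below, and 20 and 14 tissue calls.

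Of members that were not called, the sign reversed as follows. In tail ASH1L was 0.16 with sum scaling and ranged over -0.17 to 0.12 with a library left out, reversing without T3 tail replicate 3 (0.07) and control tail replicate 2. EHMT2 was -0.023 with median-ratio scaling and -0.080 with quantile normalization, HDAC7 was -0.034 and -0.11, and KDM1B was -0.29 and -0.35, with a range of -0.15 to 0.18 when a library was left out. KAT2B was -0.015 with quantile normalization. In liver SUV420H1 was 0.21 with median-ratio scaling and 0.15 with quantile normalization, SMARCC1 (DN96505_c3_g1) was 0.040 with median-ratio scaling, and KDM3A ranged over -0.33 to 0.45 with a library left out, reversing without T3 liver replicate 1. SETMAR (DN121349_c1_g1) was 0.11 with median-ratio scaling, 0.070 with quantile normalization and 0.22 without control livers 1 and 2, with a range of -0.38 to 0.13 when a library was left out. PRMT1 ranged over -0.14 to 0.31, and was -0.10 without control livers 1 and 2, where SDS3 was -0.046.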
